A study of Mus musculus with 15 samples.

Results

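The S100 and annexin genes were followed across 15 liver tumors of mice, measured as total RNA on 1-colour Agilent arrays. Members were all non-control probes whose gene name on the array began with S100, or with Anxa and a digit. The rule found 40 of the 55681 probes and 30 of the 22541 named genes, namely 17 S100 genes, 12 annexin genes and S100pbp, which encodes a binding partner of an S100 protein and was counted apart. The 29 family genes were S100a1 to S100a6, S100a7a, S100a8 to S100a11, S100a13, S100a14, S100a16, S100b, S100g, S100z, Anxa1 to Anxa11 and Anxa13.

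Hepatocellular carcinoma (HCC), a tumor with hepatocyte features, was sampled from p53f/f mice, in which the floxed Trp53 alleles are intact, and from p53LKO mice, in which Trp53 is deleted in the liver. Intrahepatic cholangiocarcinoma (ICC), a tumor with bile duct features, was sampled from p53LKO mice alone. All mice were of the C57/BL6J background, and the HCC arrays were of males per the study's text, which does not give the sex of mouse 3977, the one with an ICC alone. All received carbon tetrachloride (CCl4) in olive oil intraperitoneally at 0.5 µl per g body weight for 16 weeks, every 3 days per the labels, while the study's methods give another schedule. Each group held 5 tumors, the p53f/f HCC from 4 mice and each p53LKO group from 5 mice. Mice numbered 3731, 3733, 3976 and 5283 gave both an HCC and an ICC, and mouse 3717 gave 2 of the p53f/f HCC. The study's text gives ages at the first injection and at sacrifice without tying them to the hybridised tumors, and the Cre line was not given in the sources used here. The study reports that tumors formed later in p53f/f than in p53LKO mice, so the p53f/f HCC may be from older animals. Age and genotype then cannot be told apart between the HCC groups. Whole tumor pieces were used, so a lower level can come from fewer cells of a type or from less RNA per cell, and these cannot be told apart.

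S100 proteins are small calcium-binding proteins with EF-hand motifs that mostly work as dimers. Annexins bind phospholipid membranes when calcium is present, and several S100 proteins dock onto an annexin, as S100a10 does on Anxa2 and S100a11 on Anxa1. Most S100 genes lie side by side in a conserved cluster, whereas annexin genes are scattered over the genome. In liver, S100a8 and S100a9 are known as products of neutrophils and monocytes, S100a4 of fibroblasts and macrophages, and Anxa5 and Anxa6 are made by hepatocytes and many other cells.

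Levels are given as log2 of the processed signal minus the log2 of the 75th percentile of its array, so that 0 is the signal of a probe at that percentile. Levels of different probes were not compared. A gene is represented by its brightest probe. A gene was called higher or lower at an adjusted p under 0.05 with a change over 2-fold, that is over 1 on the log2 scale, and a probe entered the test if it was well above background on 3 or more of the 5 arrays of a group. Fold changes of levels are given on the log2 scale with the standard error (SE).

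The single probe for Trp53 read -1.27 to -0.68 in p53f/f HCC, -3.86 to -2.75 in p53LKO HCC and -4.19 to -2.31 in ICC, without overlap between genotypes. Its position on the array map is chromosome 17 of mm9, so it may not read Trp53 itself, or not the deleted part of it. Of the 12 hepatocyte markers all were above background in every tumor, with a mean log2 level of 5.87 to 6.89 in p53f/f HCC, 5.29 to 6.05 in p53LKO HCC and 2.91 to 5.64 in ICC. Of the 11 cholangiocyte markers, Epcam was above background in 5 of 5 ICC and in 0 of 5 p53LKO HCC (at least 78.2-fold higher in ICC). The share of probes above background was 55.1% to 70.1% in p53f/f HCC, 37.0% to 62.1% in p53LKO HCC and 42.5% to 47.0% in ICC. All p53f/f HCC lay in row 1 of the slides and all ICC in row 2. The p53LKO HCC were in both rows, 3 in row 1 at 61.0% to 62.1% and 2 in row 2 (mice 3976 and 5283) at 37.0% and 46.4%, so results below are also given within a row where that changed a call. In row 1, 4 p53f/f HCC were on slide 1 and 1 on slide 2, while the 3 p53LKO HCC were on slide 2. In row 2, the 2 p53LKO HCC and 1 ICC were on slide 1 and 4 ICC on slide 2. A comparison within a row is thus largely one between slides, and the 2 cannot be told apart there.

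Of the 17 S100 genes, 12 had their probes on chromosome 3 of mm9 in a stretch of 181.6 kb, in the order S100a1, S100a13, S100a14, S100a16, S100a2, S100a3, S100a4, S100a5, S100a6, S100a7a, S100a8 and S100a9. Those of S100a8 (chr3:90473778-90473837) and S100a9 (chr3:90496573-90496632) were 22.8 kb apart. Those of S100a4 (chr3:90409908-90409967) and S100a6 (chr3:90418160-90418219) were 8.3 kb apart, with S100a5 (chr3:90415643-90415702) between them. No mm9 annotation was used here, so exons were not assigned. Promoter windows of 300 bases, from 250 before to 50 after each start, came from RefSeq (GRCm38.p6) and were found for 24 of the 30 genes, 32 windows in all. The first 280 bases are printed 5′ to 3′ for the pair S100a8 and S100a9, which moved together between the HCC groups, and for the neighbours S100a4, S100a5 and S100a6, which moved in opposite directions between ICC and HCC. Capitals mark the letters TATAAA.
S100a8, chr3:90668821-90669100, plus strand: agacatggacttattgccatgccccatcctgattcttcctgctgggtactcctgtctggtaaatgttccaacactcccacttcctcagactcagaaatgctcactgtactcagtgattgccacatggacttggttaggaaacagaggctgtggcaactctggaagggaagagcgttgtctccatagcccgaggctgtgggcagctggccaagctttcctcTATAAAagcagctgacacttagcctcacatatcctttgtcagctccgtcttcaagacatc
S100a9, chr3:90695692-90695971, minus strand: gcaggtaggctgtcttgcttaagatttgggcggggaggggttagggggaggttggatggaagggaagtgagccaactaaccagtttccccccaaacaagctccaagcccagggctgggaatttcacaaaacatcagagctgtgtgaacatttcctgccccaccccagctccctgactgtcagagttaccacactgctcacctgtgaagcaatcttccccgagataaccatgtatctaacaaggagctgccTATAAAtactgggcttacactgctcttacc
S100a4, chr3:90603520-90603799, plus strand: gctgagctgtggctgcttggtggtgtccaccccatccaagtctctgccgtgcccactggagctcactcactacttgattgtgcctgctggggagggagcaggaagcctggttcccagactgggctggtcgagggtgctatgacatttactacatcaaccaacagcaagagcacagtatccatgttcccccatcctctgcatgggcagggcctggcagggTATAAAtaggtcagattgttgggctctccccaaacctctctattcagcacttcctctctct
S100a5, chr3:90608272-90608551, plus strand: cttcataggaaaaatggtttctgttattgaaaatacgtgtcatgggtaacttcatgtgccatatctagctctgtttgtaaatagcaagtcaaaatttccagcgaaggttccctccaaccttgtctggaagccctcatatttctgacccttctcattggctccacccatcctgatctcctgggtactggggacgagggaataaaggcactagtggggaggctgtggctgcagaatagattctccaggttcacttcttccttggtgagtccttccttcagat
S100a6, chr3:90612644-90612923, plus strand: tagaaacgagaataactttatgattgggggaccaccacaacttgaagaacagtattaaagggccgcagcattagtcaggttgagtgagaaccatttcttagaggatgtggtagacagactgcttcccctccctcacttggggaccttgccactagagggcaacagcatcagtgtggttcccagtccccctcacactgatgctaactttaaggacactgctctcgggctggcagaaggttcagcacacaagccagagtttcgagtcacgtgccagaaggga

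Over both strands, TATAAA was present in 8 of the 32 windows of member genes and in 13.6% of all 32851 windows. It began 30 bases before the start of S100a8, 31 bases before that of S100a4 and at the listed start of S100a9, and was not found in the windows of S100a5 and S100a6. The letters TGAGTCA, to which AP-1 dimers bind, were present in the windows of Anxa2, Anxa10 and S100a11, that is 3 of 32, against 5.2% of all windows. A p53 consensus decamer on either strand was present in 1 window each of Anxa1, S100a3 and S100a9, that is 3 of 32, against 8.36% of all windows. These are matches of letters alone.

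The first comparison asked how HCC without Trp53 differed from HCC with Trp53. S100a8 and S100a9, which form the heterodimer calprotectin of neutrophils and monocytes, were higher in p53LKO HCC by 3.58-fold and 4.3-fold. S100a3, known from hair cuticle, was 2.19-fold lower, at a level near background. No annexin of 11 tested passed in limma or in the methods' t-test, although 2 had an unadjusted p under 0.05. Of the 29 family genes 25 could be tested, 2 were higher and 1 was lower, while among all 16821 genes tested 5.42% were higher and 8.94% lower. The median log2 fold change was 0.35 over the tested family genes and 0.10 over all genes. With spike-in probes as the scale, on which the median of all genes moved to 0.83, 13 family genes were higher and 0 lower, as were 6140 and 579 of all genes.

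S100a9 read 1.32, 1.99, 3.18, 3.37 and 3.34 in the p53f/f HCC of mice 3681, 3715, 3716 and 3717 (T1 and T2). In the p53LKO HCC of mice 3976, 5283, 3731, 3733 and 3975 it read 3.82, 5.75, 4.96, 3.99 and 5.20. The lowest p53LKO tumor stood above the highest p53f/f tumor. The means were 2.64 ± 0.93 and 4.74 ± 0.82 (SD, n = 5 each). The log2 fold change was 2.10 (SE 0.49, adjusted p = 0.00794). S100a9 passed in all 26 alternative analyses, with a log2 fold change of 1.77 to 2.84.

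S100a8 followed the same order of tumors within the p53LKO group. It read -0.76, -0.05, 1.25, 1.46 and 1.53 in the p53f/f HCC, in the order of mice above. In the p53LKO HCC it read 1.62, 3.82, 2.66, 1.70 and 2.83, again with no overlap. The log2 fold change was 1.84 (SE 0.54, adjusted p = 0.0233). Within row 1 alone it was 1.71 with an adjusted p of 0.0516, and with the slide as a block 1.75 with 0.0581, and neither passed. The call was also lost with row as a block (adjusted p = 0.0763), quantile normalization (1.64, adjusted p = 0.0542) and the methods' t-test (adjusted p = 0.0606).

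S100a3 read -2.00, -2.07, -2.46, -1.51 and -1.92 in the p53f/f HCC. In the p53LKO HCC it read -3.08, -3.90, -3.12, -2.91 and -2.61, with the tumor of mouse 5283 not above background. The groups did not overlap and the log2 fold change was -1.13 (SE 0.26, adjusted p = 0.00692). It was -0.89 (adjusted p = 0.0241) within row 1 and -0.94 (adjusted p = 0.00834) without the tumor of mouse 5283, both under 2-fold. The call was also lost with row as a block (-0.89, adjusted p = 0.0344), normexp background correction (-0.53, adjusted p = 0.0127), quantile normalization (-0.65, adjusted p = 0.0621) and spike-in probes (-0.39, adjusted p = 0.259). S100a2, another gene of the cluster, also showed no overlap, with -1.38 to -0.99 in p53f/f HCC and -1.79 to -1.52 in p53LKO HCC, but its log2 fold change was -0.47 (adjusted p = 0.0281). These 4 genes were the family members whose groups did not overlap, 4 of 25 tested against 18.1% of all genes.

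**Figure D1:**
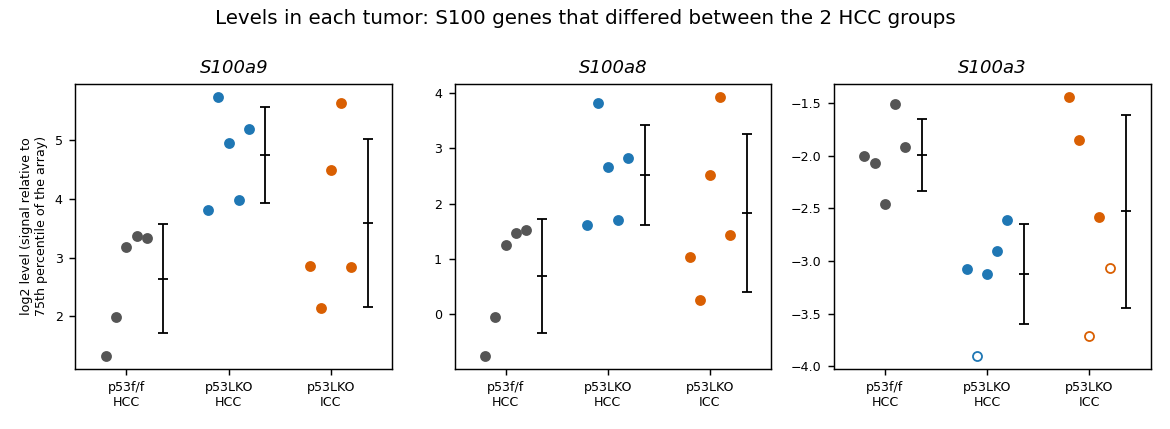
Log2 level (signal relative to the 75th percentile of the array) of S100a9, S100a8 and S100a3 in each of the 15 tumors by group. Filled points were well above background, open points were not, and bars give the mean and SD of 5 tumors. S100a9 and S100a8 lay higher in every p53LKO HCC than in any p53f/f HCC, S100a3 lay lower, and the ICC spread over both ranges.

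The neutrophil list, whose 10 measured genes include neither S100a8 nor S100a9, overlapped between the HCC groups. Its mean log2 level was -2.77 to -1.77 in p53f/f HCC and -2.14 to -0.54 in p53LKO HCC, with 4 to 8 and 6 to 10 of the genes above background. In p53LKO HCC the tumors of mice 5283 and 3975 were highest for the list, at -0.54 and -0.99, and for S100a8 and S100a9. That of mouse 3976 was lowest for both genes but at -1.26 for the list. The order rests in part on dim spots, since only 6 of the genes were above background in the tumors of mice 5283, 3976 and 3733, and in those of mice 5283 and 3976 the undetected S100a7a read -4.25 and -5.26, against -7.37 to -6.99 in the row 1 tumors of p53LKO mice. Of 7 tested members of the list 2 were higher, Retnlg (log2 fold change 2.22, adjusted p = 0.0286) and Ltf (1.69, adjusted p = 0.0285), and Csf3r, the G-CSF receptor, was lower (-1.55, adjusted p = 0.000196). Mmp8, Mmp9 and Ngp were too dim to test, with Mmp9 above background in 0 of 5 p53f/f and 2 of 5 p53LKO HCC. Of the 9 tested macrophage and monocyte genes none was higher and Itgam was lower (-2.09, adjusted p = 0.000565). The part of these cells in the S100a8 and S100a9 levels was not tested.

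No annexin and no other S100 gene passed both thresholds between the HCC groups. Anxa6, a large annexin with a duplicated core, read 4.06, 5.01, 4.68, 4.23 and 4.04 in p53f/f HCC and 5.08, 5.14, 5.14, 4.88 and 5.04 in p53LKO HCC. The p53LKO tumors were thus nearly alike, and 4 of 5 exceeded all p53f/f tumors, with a log2 fold change of 0.65 (adjusted p = 0.034). S100a11, a partner of Anxa1, gave 0.66 (adjusted p = 0.0374) and Anxa5, which binds phosphatidylserine, 0.60 (adjusted p = 0.0592). The probe named S100a11 is mapped on the array to chromosome 18 of mm9, whereas RefSeq lists the gene on chromosome 3, so its values may not be those of this gene alone.

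Large differences with wide spread were seen for S100g and Anxa13. S100g, a vitamin D-dependent calcium buffer of the intestine, had a log2 fold change of 2.58 (SE 1.26, adjusted p = 0.137). It read -4.56 to 1.26 in p53f/f HCC and -1.14 to 0.70 in 4 p53LKO HCC, while the p53LKO tumor of mouse 3733 read 4.97. Without that tumor the log2 fold change was 1.55 (adjusted p = 0.27). Its second probe, which shares most of its position with the first, gave 3.02 (adjusted p = 0.112).

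Anxa13, an annexin of intestinal and renal epithelium, read 3.09, 4.83, 4.12, -2.05 and 0.85 in the p53f/f HCC. Both low values were from mouse 3717. In p53LKO HCC it read 2.90 to 5.04, and the log2 fold change was 2.0 (SE 1.14, adjusted p = 0.198), or 0.94 without the lower tumor of mouse 3717. S100b, best known from glia, was as uneven among p53f/f HCC, with -0.32 and 0.05 in mice 3715 and 3716 and -6.45 to -3.18 in the others.

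The remaining tested members had log2 fold changes between -0.19 (Anxa9) and 0.86 (S100a6, SE 0.48, adjusted p = 0.188). Anxa2 and S100a10, the subunits of the heterotetramer that binds plasminogen and tPA, gave 0.45 (adjusted p = 0.213) and 0.13 (adjusted p = 0.745). Anxa10, S100a14, S100a7a and S100z were too dim to test. A second probe disagreed for Anxa8, with -0.81 (adjusted p = 0.0249) against 0.19 (adjusted p = 0.79) for the brighter, and for S100pbp. Second probes also had the opposite sign, with neither probe past the threshold, for Anxa7 (-0.24 against 0.37), Anxa11 (-0.09 against 0.50), S100a4 (-0.02 against 0.55), S100a1 (-0.10 against 0.06) and Anxa1 (-0.02 against 0.07).

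S100pbp was read by 3 probes. The brightest, made to the cDNA AK139097, read -1.44 to -0.63 in p53f/f HCC, -3.78 to -3.04 in p53LKO HCC and -2.58 to -0.63 in ICC. It was above background in every tumor but 2 of the p53LKO HCC. Its log2 fold change was -2.30 (SE 0.20, adjusted p = 8.21e-05) between the HCC groups and 1.92 (SE 0.36, adjusted p = 0.00182) between ICC and p53LKO HCC. Over the alternatives these ran from -2.54 to -0.72 and from 0.57 to 2.29, and 24 of 25 alternatives passed in each comparison. Of the other 2 probes, made to the RefSeq transcript, one gave 0.10 (adjusted p = 0.697) between the HCC groups and -0.08 (adjusted p = 0.792) between ICC and HCC, and was above background in 5, 4 and 3 of 5 tumors of p53f/f HCC, p53LKO HCC and ICC. The last was above background in 3, 3 and 0 of 5 tumors and is too dim to compare.

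The second comparison asked how ICC differed from HCC within p53LKO mice, and shares the 5 p53LKO HCC with the first. ICC had 8 family genes higher, Anxa8, S100b, Anxa10, Anxa3, S100a6, Anxa1, S100a4 and S100a11, and 4 lower, Anxa6, Anxa13, S100a5 and Anxa9. The rises ran from 3.26-fold (S100a11) to 9.09-fold (Anxa3) in the 5 genes above background in all 10 tumors, while the sizes for Anxa8, S100b and Anxa10 depend on HCC that were not above background. The falls ran from 2.23-fold (Anxa9) to 2.83-fold (Anxa6). Of 29 genes 26 could be tested, and among all 16116 genes tested 12.3% were higher and 15.5% lower. The median log2 fold change was 0.37 over the tested family genes, also with Anxa10 set at its bound, and -0.19 over all genes. With the 75th percentile taken over probes detected on all arrays, the median of all genes was 0.18, 10 family genes were higher and 1 lower, and 2931 and 1363 of all genes. In 11 members, the called genes except Anxa10 and Anxa13 and also S100a2, the groups did not overlap, against 30.8% of all genes.

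**Figure D2:**
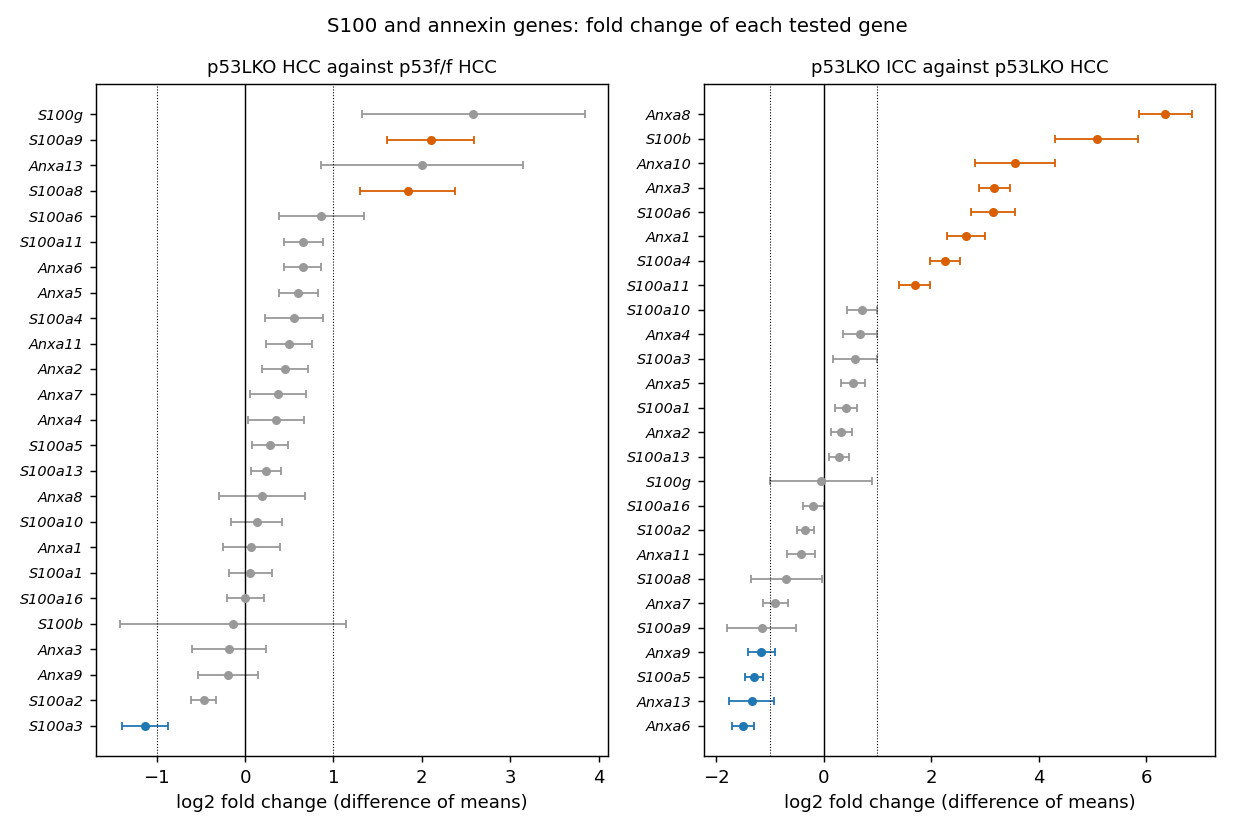
Log2 fold change (points) with its SE (bars) of each tested S100 and annexin gene, p53LKO HCC against p53f/f HCC on the left and p53LKO ICC against p53LKO HCC on the right. Orange points were called higher and blue points lower, dotted lines mark a change of 2-fold, and grey points did not pass. Only S100a9, S100a8 and S100a3 passed on the left, and 12 genes passed on the right.

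Anxa8, known from stratified epithelia and acute promyelocytic leukemia, had the largest difference. It read 2.36, 3.77, 3.66, 3.07 and 3.35 in the ICC of mice 3731, 3733, 3976, 3977 and 5283. In the p53LKO HCC of mice 3976, 5283, 3731, 3733 and 3975 it read -2.93, -2.09, -2.16, -4.80 and -3.62, of which 2 were above background. All ICC were thus far above all HCC, p53f/f HCC included, at -3.75 to -2.42. The log2 fold change was 6.36 (SE 0.50, adjusted p = 1.78e-05). Since 3 of 5 HCC were not above background its size depends on how dim spots are treated, and was 4.84 at the least of the alternatives. A second probe gave 4.10 (SE 0.27, adjusted p = 6.68e-06).

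S100b read 0.49, 2.91, 1.86, 0.37 and 3.38 in the ICC and -3.79, -3.49, -1.43, -5.22 and -2.46 in the p53LKO HCC, with 2 of these HCC above background. The lowest ICC stood above the highest HCC, and the log2 fold change was 5.08 (SE 0.77, adjusted p = 0.000593). As with Anxa8, 3 of 5 HCC were not above background, and the size ran from 3.55 (with normexp background correction) to 5.64 over the alternatives. The p53f/f HCC of mice 3715 and 3716, at -0.32 and 0.05, came close to the lower ICC.

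Anxa10, known from gastric epithelium, was not above background in any of the 10 HCC. It was above background in the ICC of mice 3731, 3733 and 3977, at -0.38, -1.71 and -1.01, and not in those of mice 3976 and 5283, at -4.70 and -2.82. In processed signals its level was at least 3.75-fold higher in ICC (adjusted p = 0.00324). This bound holds for that signal alone, since normexp background correction gave a log2 fold change of 1.38 (adjusted p = 0.00841). The call was lost within row 2 alone (adjusted p = 0.0793) and with row as a block (adjusted p = 0.0526).

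Anxa3, an annexin of neutrophils and several epithelia, had the least spread over ICC among the 8 genes that rose. It read 1.76, 2.31, 1.78, 1.99 and 2.18 in the ICC and -1.36, -1.16, -0.17, -1.81 and -1.38 in the p53LKO HCC. The groups lay apart by more than the whole range of either, with a log2 fold change of 3.18 (SE 0.28, adjusted p = 3.57e-05). In p53f/f HCC it read -1.64 to -1.07 in 4 tumors and 0.50 in T2 of mouse 3717.

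S100a6 (calcyclin), a marker of proliferating cells and bile ducts among others, read 5.69, 6.28, 6.57, 6.42 and 6.81 in the ICC. In the p53LKO HCC it read 2.53, 2.76, 4.21, 2.27 and 4.22, a log2 fold change of 3.15 (SE 0.41, adjusted p = 0.000282). The HCC of mice 3731 and 3975 were the high ones, and still lay below every ICC. S100a4, also named fibroblast-specific protein, read 3.49, 4.43, 3.80, 3.96 and 3.65 in the ICC and 1.25, 2.24, 2.14, 1.12 and 1.27 in the HCC. Its log2 fold change was 2.26 (SE 0.28, adjusted p = 0.000197), and 2.06 (adjusted p = 0.000331) by its second probe.

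Anxa1 and its partner S100a11 were both higher. Anxa1, which binds formyl peptide receptors and limits neutrophil entry, read 4.20, 5.05, 4.90, 4.47 and 5.70 in the ICC. In the p53LKO HCC it read 1.95, 1.93, 3.35, 1.74 and 2.10, with mouse 3731 standing out. The log2 fold change was 2.65 (SE 0.35, adjusted p = 0.000305), and 2.83 (adjusted p = 3e-04) by a second probe. S100a11 read 3.99 to 5.52 in the ICC and 2.31 to 3.19 in the HCC, a log2 fold change of 1.70 (SE 0.29, adjusted p = 0.00116), with the limit on its probe given above.

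Between S100a4 and S100a6 lies S100a5, which fell. It read -1.69, -2.02, -1.54, -1.72 and -1.48 in the ICC and -0.26, -0.25, -0.82, -0.39 and -0.22 in the p53LKO HCC. All tumors were above background and the groups did not overlap, with a log2 fold change of -1.30 (SE 0.17, adjusted p = 0.000314). It was -0.84 with normexp background correction and -0.93 with arrays scaled to the probes detected on all of them (75th percentile), both under 2-fold. S100a2 and S100a16, further along the cluster, gave -0.34 (adjusted p = 0.104) and -0.19 (adjusted p = 0.453). The second probe of S100a16 gave 0.32 (adjusted p = 0.173), of the opposite sign.

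**Figure D3:**
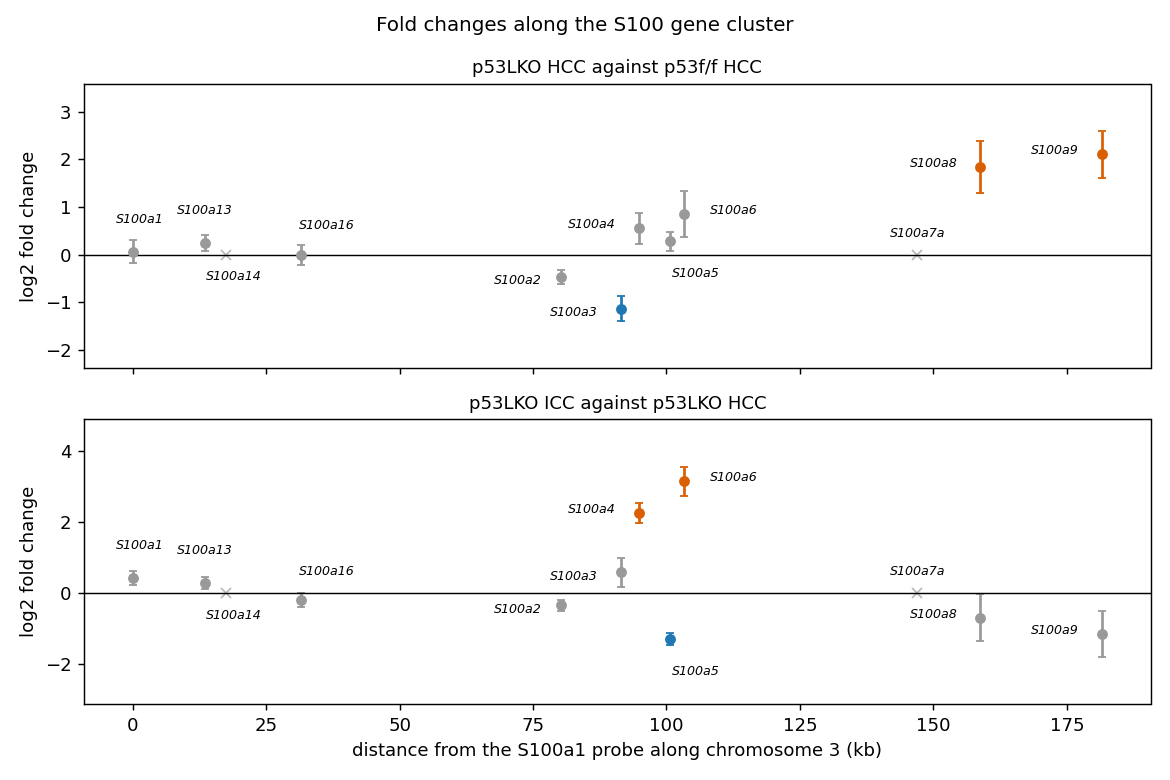
Log2 fold change with its SE of the 12 clustered S100 genes against the distance of each probe from that of S100a1 (kb, mm9 chromosome 3), p53LKO HCC against p53f/f HCC above and p53LKO ICC against p53LKO HCC below. Orange was called higher, blue lower, grey did not pass, and crosses drawn at 0 mark S100a14 and S100a7a, which were not tested. S100a8 and S100a9 rose at the far end in the upper panel, and S100a5 fell between S100a4 and S100a6, which rose, in the lower.

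Anxa6 was lower in ICC. It read 3.46, 2.93, 4.15, 3.63 and 3.61 in the ICC and 4.88 to 5.14 in the p53LKO HCC, without overlap. The log2 fold change was -1.5 (SE 0.21, adjusted p = 0.000398), and it passed in all 26 alternatives. Anxa9, an annexin that lost calcium binding in its core, read -1.25, -0.82, -0.58, -1.08 and -1.32 in the ICC and -0.06, -0.30, -0.28, 0.75 and 0.61 in the HCC. Its log2 fold change was -1.16 (SE 0.25, adjusted p = 0.0045), but -0.83 (adjusted p = 0.0452) within row 2, and it was also under 2-fold with normexp (-0.89) and with both scalings on detected probes (-0.79 and -0.95).

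Anxa13 gave the weakest of the calls. It read 2.59, 3.09, 2.26, 2.93 and 3.26 in the ICC and 2.90, 5.04, 4.81, 3.36 and 4.71 in the p53LKO HCC, so that the groups overlapped. The log2 fold change was -1.34 (SE 0.42, adjusted p = 0.0233). With the mouse as a fixed block it was -1.23 (adjusted p = 0.0571), within row 2 it was -1.14 (adjusted p = 0.142), and with quantile normalization -0.99 (adjusted p = 0.0854). The call was lost by the methods' t-test (adjusted p = 0.0739), with all 15 arrays in 1 model (adjusted p = 0.276) and with both scalings on detected probes (-0.97, adjusted p = 0.0904, and -1.14, adjusted p = 0.0516). The call was also lost without the HCC of mouse 5283 (-1.12, adjusted p = 0.0525), that of mouse 3975 (-1.20, adjusted p = 0.0511) or the ICC of mouse 3976 (-1.20, adjusted p = 0.0544).

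**Figure D4:**
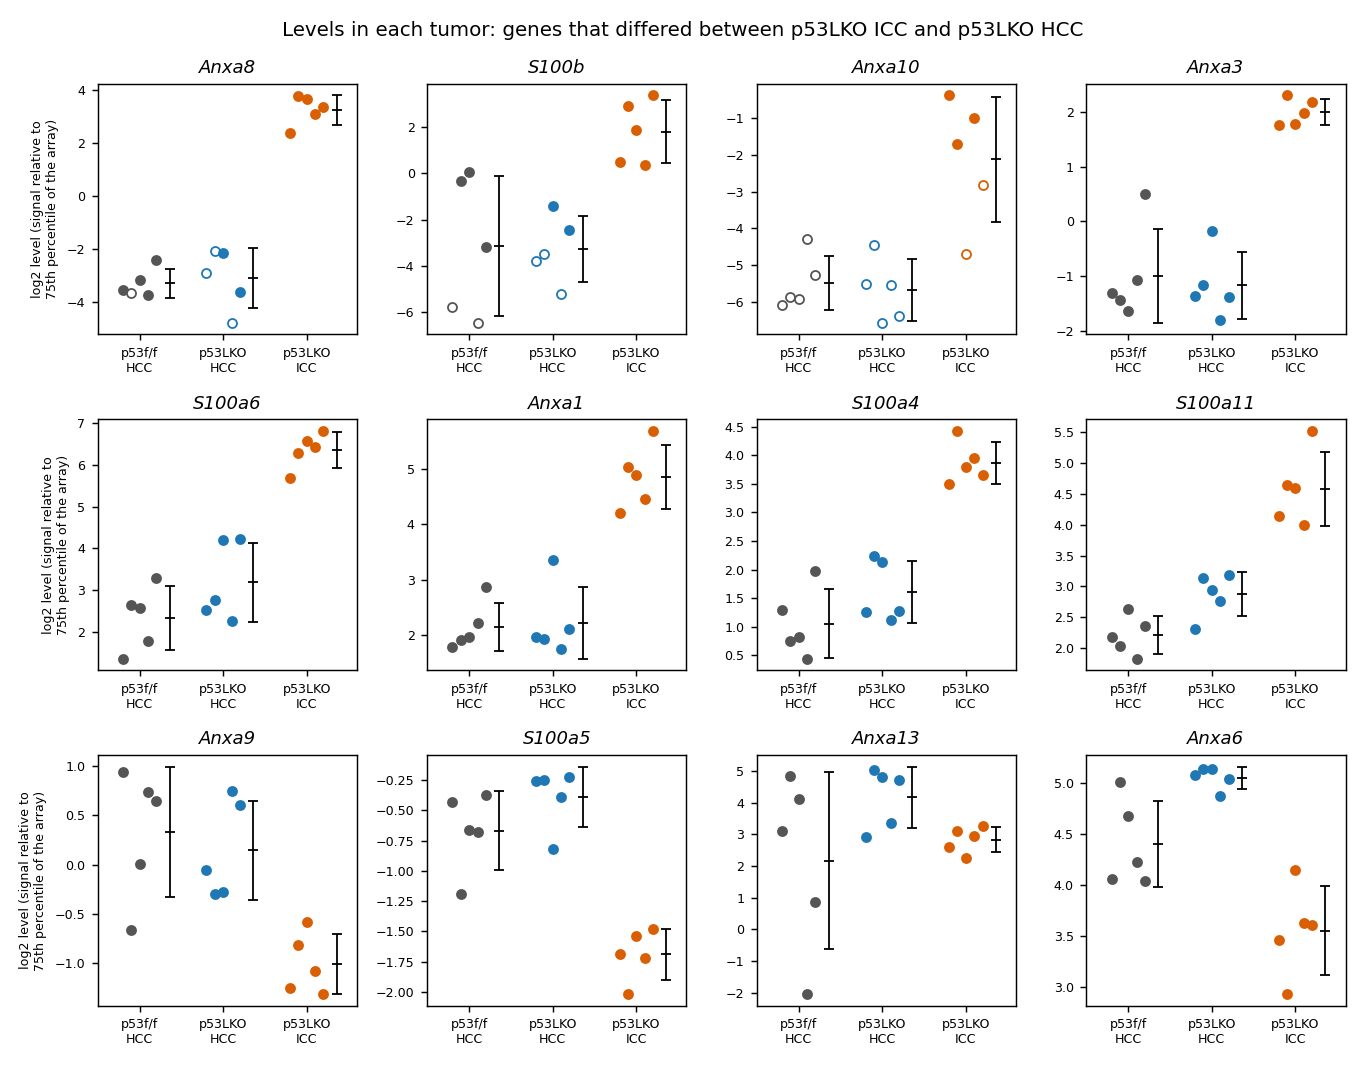
Log2 level (signal relative to the 75th percentile of the array) in each tumor of the 12 genes called between p53LKO ICC and p53LKO HCC, with p53f/f HCC beside them. Filled points were well above background, open points were not, and bars give the mean and SD of 5 tumors. The ICC lay apart from the p53LKO HCC in all panels except those of Anxa10 and Anxa13.

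The other 14 tested members did not pass. Anxa7, an annexin of secretory granules, came closest among those that fell, with -0.90 (adjusted p = 0.0104) and, by its second probe, -0.69 (adjusted p = 0.0745). S100a10 gave 0.72 (adjusted p = 0.0555), Anxa4, known from bile duct and other secretory epithelia, 0.68 (adjusted p = 0.104), and Anxa5 0.55 (adjusted p = 0.0746). Anxa2 was at 6.06 to 6.72 in p53LKO HCC and 6.44 to 7.09 in ICC, a log2 fold change of 0.33 (SE 0.20, adjusted p = 0.194). Thus Anxa1 and S100a11 passed while Anxa2 and S100a10 did not, a contrast that was not itself tested.

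A second probe differed from the first for S100a1, with 0.87 (adjusted p = 0.0117) against 0.42 (adjusted p = 0.114), both under 2-fold. The brighter probe of Anxa11 gave -0.42 (adjusted p = 0.205), and its second was above background in 3 of 5 HCC and 0 of 5 ICC (adjusted p = 0.0178), so no size is given. S100a14 was above background in 1 of 5 ICC and 0 of 5 HCC and was not tested, and S100a7a and S100z were above background in none of the 15 tumors.

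S100a8 and S100a9 did not pass between ICC and HCC of p53LKO mice, and their ICC values were wide apart. S100a9 read 2.86, 2.13, 4.50, 5.64 and 2.84 in the ICC of mice 3731, 3733, 3976, 3977 and 5283, and S100a8 1.03, 0.25, 2.51, 3.94 and 1.43. The tumors of mice 3976 and 3977 were the high ones for both. The neutrophil list read -1.84, -1.99, -0.67, 0.15 and -1.01 in the same order, highest in the same 2 tumors, with 4 to 7 of its 10 genes above background. The log2 fold changes were -0.69 (SE 0.66, adjusted p = 0.412) for S100a8 and -1.15 (SE 0.64, adjusted p = 0.167) for S100a9. Without the ICC of mouse 3977 that of S100a9 was -1.66 (adjusted p = 0.0298).

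Markers of other cells differed between ICC and HCC beside the members. Of 11 stellate cell and fibroblast genes 7 were higher and none lower, among them Col3a1 (2.78, adjusted p = 0.00024), Col1a1 (2.63, adjusted p = 0.000916), Lum (2.37, adjusted p = 0.00122) and Dcn (2.30, adjusted p = 0.000121). The mean log2 level of the list was 1.25 to 3.16 in p53LKO HCC and 3.28 to 4.05 in ICC. The HCC of mouse 3731 was highest among the p53LKO HCC for this list, at 3.16, and also for Anxa1, Anxa3 and S100b. It was not highest for Anxa8, S100a6, S100a4 and S100a11, which also rose in ICC, and Anxa10 was not above background in any HCC.

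Of 9 tested cholangiocyte genes 4 were higher, Epcam, Spp1 (4.73, adjusted p = 1.28e-05), Krt19 (4.67, adjusted p = 0.000304) and Krt7 (adjusted p = 0.00884, above background in 1 of 5 HCC and 4 of 5 ICC), and 2 lower, Cldn7 (-2.52) and Prom1 (-1.26). The list read -1.96 to -0.65 in p53LKO HCC and 0.16 to 0.64 in ICC. Among p53f/f HCC it read -1.96 to -1.47 in 4 tumors and 0.09 in T2 of mouse 3717. That tumor was also highest in its group for Anxa1, Anxa3, Anxa8, S100a4 and S100a6, but not for S100a11 and S100b. Anxa10, the remaining gene that rose in ICC, was not above background in any p53f/f HCC. By the second probe of Anxa8 the tumor read -2.42, below the -2.09 of mouse 3681.

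Of 9 tested macrophage and monocyte genes 3 were higher (Lyz2, Itgam and Ccr2) and none lower, with the list at 0.97 to 2.21 in HCC and 2.20 to 2.98 in ICC. Of 4 tested mesothelial genes 3 were higher, Msln (6.01, adjusted p = 0.000919), Krt19 and Wt1 (2.39, adjusted p = 0.025), and the list read -4.70 to -1.80 in HCC and -1.01 to 1.02 in ICC. Of 12 hepatocyte genes 5 were lower and none higher, Apoa1 (-2.76), Hnf4a (-2.03), Alb (-1.91) and Ttr (-1.73) by the most. The part of these cells in the members' changes was not tested.

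Between the HCC groups the other lists held few calls. Of 12 hepatocyte genes 3 were lower, Tdo2 and Apob among them, of 11 stellate cell and fibroblast genes 2 were higher (Lum and Pdgfra), of 4 tested mesothelial genes 1 was higher (Lrrn4), and Stab2 of 8 endothelial, Pax5 of 5 B cell and Pnlip of 8 tested acinar genes were lower. Of 7 tested cholangiocyte and 7 tested T and NK cell genes no call was made. Between ICC and p53LKO HCC, Ms4a1 among the B cell genes and Cd3d of 7 T and NK cell genes were higher, Cd4 was lower, Vwf of 8 endothelial genes was higher, and Cela1 and Ctrb1 of 6 tested acinar genes were lower. Cxcr2 and Elane of 8 tested neutrophil genes were lower.

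The receptors and partners of S100 proteins and annexins formed a list of 16 genes. Between the HCC groups 4 of 15 tested were higher and none lower. Plat, the gene of tPA, which assembles on the Anxa2 and S100a10 complex, rose by 3.02 on the log2 scale (SE 0.67, adjusted p = 0.00631), and the urokinase receptor Plaur by 1.35 (adjusted p = 0.00533). Tgm2, a transglutaminase that cross-links S100 proteins and annexins among others, rose by 1.30 (adjusted p = 0.00264) and the scavenger receptor Cd36 by 1.18 (adjusted p = 0.0392). Tlr4, a receptor for S100a8 and S100a9, gave 0.41 (adjusted p = 0.32), and Ager, the gene of RAGE, was too dim to test.

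Between ICC and p53LKO HCC 4 of the 16 rose and 4 fell. Ager was higher in ICC (adjusted p = 0.000986), where 4 of 5 tumors were above background against 1 of 5 HCC, so its size was not measured. Plaur rose by 1.58 (adjusted p = 0.00119), urokinase (Plau) by 1.72 (adjusted p = 0.00845) and Ahnak, a scaffold that binds Anxa2 and S100a10, by 1.13 (adjusted p = 0.00559). Cd36 fell by 2.70 (adjusted p = 0.00155) and plasminogen (Plg), a hepatocyte product, by 2.18 (adjusted p = 0.00995). Of the formyl peptide receptors, a family that Anxa1 binds, Fpr1 fell by 1.77 (adjusted p = 0.0168) and Fpr3 was at least 1.26-fold lower (adjusted p = 4.25e-05), and Fpr2 gave -1.08 (adjusted p = 0.117). Plau, Plaur, Ahnak and Fpr1 were named after their values were seen.

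The fused-type S100 genes, long epidermal proteins with an S100 domain at the start, were mostly dark. Of 6 on the array 2 could be tested in each comparison. Tchh (trichohyalin) was higher in ICC (adjusted p = 0.00102), where 5 of 5 tumors were above background against 2 of 5 HCC, so its size was not measured. Flg2, Hrnr and Rptn were above background in none of the 15 tumors.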

How the data were processed

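RNA of 15 tumors was hybridised to 1-colour Agilent 8x60K mouse arrays, and groups and mice were taken from the sample titles. The authors extracted the images with Agilent Feature Extraction 10.7.3.1 (also in the submitters' processing notes), and the deposited scanner files hold the processed signal, an intensity after background subtraction and detrending, with flags per spot and probe positions on mm9. The log2 table deposited by the authors holds the same signals after a shift by the array's 75th percentile, with each probe centred over the HCC arrays for HCC and over the p53LKO arrays for ICC, so it served as an alternative only for the HCC comparison. The authors analysed the arrays in GeneSpring, with settings not given in the sources used here, and called genes at an adjusted p under 0.05 and a change over 2-fold. Their general statistics name the Mann-Whitney U test or the Welch-corrected t-test (the methods' t-test here), without saying which served the arrays.

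Here, outlier spots were left out, replicate spots were averaged as log2 processed signals, and the 75th percentile of all non-control probes was subtracted on each array. Each comparison used its own 10 arrays in limma 3.58.1 (R 4.3.3) with Benjamini-Hochberg adjustment over all tested probes, 36081 for the HCC groups and 32665 for ICC against HCC. A gene was represented by its brightest probe. Where a whole group was not above background, the fold change is a bound against the lowest signal well above background, which holds for the processed signal, and single spots above that floor can still be flagged as not above background. No spot was saturated, and 5 arrays per group limit the precision. Each array held 1 tumor, so p-values measure the spread between tumors, of which 2 in p53f/f HCC share mouse 3717.

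Same-mouse HCC and ICC did not deviate together: their correlations were -0.143 to 0.0654 over 4 pairs, against -0.263 to 0.284 over 21 other pairs. The pairing comes from the mouse numbers of the titles, and the mouse as a replicate block was an alternative.

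All members are named. Values per tumor are given for called members, and up to 4 called genes per marker list, by size of change. Some genes of the marker lists are not reported here. The members, lists and tests were chosen with earlier results of these data known. Alternatives were other background corrections, scalings and filters, slide, row and mouse blocks, single rows, probe averaging, the methods' t-test and leaving out each tumor. Simulated arrays with 200 changed probes per comparison were tested. Of changes of 3 on the log2 scale 92% were recovered for the HCC groups (36081 probes) and 89% for ICC against HCC (32665 probes), and of changes of 1.5, 61% in each. The simulated noise was drawn independently for each probe and array, without row, slide or mouse effects. Far fewer probes were changed than were called in the tumors, so these shares may not hold for the real arrays. Promoters were searched in Python 3.11.15, and figures were drawn with matplotlib 3.10.9.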

Additional observations from a re-analysis of the deposited data

Results flagged for a closer look

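In 5 of the 90 combinations of member gene and group examined, 1 tumor stood far from the other 4 by Dixon's criterion, where chance gives about 1 in 20, that is 4.5. Anxa1 read 3.35 in the p53LKO HCC of mouse 3731, against 1.74 to 2.10 in the others. S100a5 read -0.82 in the same tumor, against -0.39 to -0.22. Anxa3 read 0.50 in the p53f/f HCC T2 of mouse 3717, against -1.64 to -1.07, and S100a14 read -2.87 in that tumor, the only p53f/f HCC in which it was above background, against -5.49 to -4.98. Anxa5 read 5.07 in the p53f/f HCC of mouse 3681, against 5.75 to 5.96. The causes were not tested.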

How the results depend on the processing

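Of 1362 recomputed fold changes of single genes, 1255 kept their side of the thresholds and their sign (values rounding to 0 counted as kept). Of the others 33 lost the call, 22 gained it and 52 changed sign, none of the last being called in either analysis. Between the HCC groups, the 2 genes higher became 1 under quantile normalization, with slide or row as a block, in row 1 alone and by the methods' t-test, 4 by adjusted p alone and 13 with spike-in probes. The 1 lower became 0 with normexp, quantile normalization, spike-in probes, probes above background on every array, row as a block and row 1 alone, 2 by adjusted p alone, and 0 to 1 when leaving out single tumors. Between ICC and HCC, the 8 higher became 5 with probes above background on every array, where Anxa8, S100b and Anxa10 are not tested. They became 7 with row as a block or row 2 alone, where Anxa10 lost its call, 9 with no filter, 10 with the 75th percentile of detected probes (Anxa4 and S100a10 gained) and 11 with quantile normalization (Anxa4, Anxa5 and S100a10 gained), and 7 to 8 when leaving out single tumors. The 4 lower became 2 with normexp, the median of detected probes, row as a block and row 2 alone, and 1 with the 75th percentile of probes detected on all arrays. They became 3 with quantile normalization, the methods' t-test and all 15 arrays in 1 model, where Anxa13 lost its call, 5 by adjusted p alone, and 3 to 5 when leaving out single tumors. With mouse as a fixed replicate block 8 were higher and 3 lower, and the random block (correlation 0.0438) gave 8 and 4. No call other than that of Anxa13 changed under either block.

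The median log2 fold change of all genes moved from 0.10 to 0.83 (spike-ins), -0.15 (75th percentile of detected probes) and -0.09 (their median) between the HCC groups, and from -0.19 to 0.18 and 0.02 with both scalings on detected probes between ICC and HCC. Of genes called, 37.7% were higher between the HCC groups, against 54.4% with normexp, 16.4% and 21.4% with detected probes and 91.4% with spike-ins. Between ICC and HCC, 44.3% were higher, against 68.3% and 57.8% with detected probes.

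The changes of sign were as follows, where a value that rounded to 0 in either analysis was not counted. S100a16 between the HCC groups was such a case, with a main value of 0 and a range of -0.24 to 0.74. Between the HCC groups, quantile normalization gave Anxa1 -0.15, Anxa3 0.01, S100a1 -0.16, S100a10 -0.09 and S100b 0.09, and the 75th percentile of detected probes gave Anxa1 -0.17, Anxa8 -0.05, S100a1 -0.19 and S100a10 -0.11. Their median gave Anxa1 -0.11, S100a1 -0.12 and S100a10 -0.05, and spike-ins gave Anxa3 0.55, Anxa9 0.55, S100a2 0.27 and S100b 0.60. Row as a block and row 1 alone both gave Anxa4 -0.05, Anxa8 -0.21, Anxa9 0.02, S100a1 -0.03 and S100b 0.10. Anxa1 was -0.18 with slide as a block, Anxa8 -0.04 with normexp, and S100a1 -0.03 with both tumors of mouse 3717 averaged. Averaging probes gave Anxa8 -0.31 and S100a1 -0.02. Leaving out single tumors gave Anxa1 -0.21 to 0.25, Anxa3 -0.43 to 0.19, Anxa8 -0.06 to 0.61, S100a1 -0.08 to 0.20, S100a10 -0.06 to 0.33 and S100b -0.97 to 0.35. Between ICC and HCC, S100a16 was 0.09 with quantile normalization, 0.17 and 0.01 with detected probes and 0.06 with probes averaged, S100a2 was 0.03 with the 75th percentile of detected probes, and S100g was 0.07, 0.33 and 0.16 with these scalings, 1.03 with row as a block or row 2 alone, and -0.54 to 0.99 when leaving out single tumors. The causes were not tested. Values of Anxa8, Anxa10, S100b, S100a3 and S100a14 are limited by signals near background.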
